A study of Mus musculus with 48 samples.

Results

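The comparison of FVB with C57BL/6 (B6) kidneys after a sham operation covers 24 of the 48 arrays of the series, 12 from each strain, and was described here over 13174 genes. The 24 arrays were chosen by their labels alone: every array labelled as sham operated, at day 2, 28 or 53 after surgery, with 4 mice per strain and day. The series asked how kidneys of mice that are prone to lesions after subtotal nephrectomy (FVB) and of mice that are not (B6) differ in gene expression. Total RNA of whole frozen kidney was hybridised, 1 mouse per Affymetrix array, and surgery was done at 9 weeks of age per the labels. The other 24 arrays hold kidneys of the same strains and days after subtotal nephrectomy (Nx), in which most of the kidney mass is removed. No transgene, drug or mutant allele is named for any group, and the substrain of C57BL/6 is not given in the sources used here.

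A sham-operated mouse keeps its kidneys, so these arrays compare the strains without the loss of kidney mass that Nx brings. FVB and C57BL/6 are inbred strains of different ancestry that carry different haplotypes of H2, the mouse major histocompatibility complex. A whole kidney is mostly proximal tubule, which recovers filtered solutes and holds much of the organ's drug, steroid and amino acid metabolism, followed by the loop of Henle, distal tubule, collecting duct, glomeruli, vessels, interstitial fibroblasts and resident immune cells. A probe set is a group of short oligonucleotides on the array that report 1 transcript region. All levels below are deposited log2 values, and all differences are FVB minus B6 on that scale, the mean of the 3 day-wise differences.

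Markers of kidney epithelium were high on every sham array. The 10 proximal tubule markers averaged 13.41 to 13.55 in FVB and 13.20 to 13.54 in B6, whereas the 5 T lymphocyte markers that passed the filter averaged 2.28 to 2.40 and 2.26 to 2.41, near the lowest value of the table (2.20), with Cd3g at it on every array. Xist read 12.9 to 13.4 on all 24 arrays with its highest probe set, and probe sets of the Y-linked genes Eif2s3y, Kdm5d and Uty stayed at or next to the lowest value. Transcripts of neighbouring organs were present in some kidneys. The mean of 19 measured pancreas markers lay above 5 in 1 FVB array (day 28 mouse 4, 10.37) and 1 B6 array (day 28 mouse 1, 6.91), the same FVB array read 10.07 for the liver set against at most 5.71 in the other FVB arrays, and B6 day 2 mouse 4 read 8.89 for the adrenal set against at most 2.94 elsewhere. The mean of 4 brown fat markers lay above 7 in 7 FVB and 5 B6 arrays, and averaged 7.28 in FVB and 6.21 in B6. At day 53 it ran from 5.13 to 8.47 in FVB and from 4.14 to 4.99 in B6, without overlap. Of the 4 markers 2 were higher in FVB over all days, Cox8b (2.11) and Cox7a1 (0.46), and Ucp1 and Cidea did not pass. Fibroblast and pericyte markers ran from 9.00 to 10.43 in FVB and from 9.41 to 10.78 in B6, macrophage markers from 6.67 to 8.49 and from 7.01 to 8.30, and the highest values of both sets came from day 2. The part of these transcripts in the strain differences below was not tested gene by gene. RNA quality read from the 3' to 5' difference of the actin control was 2.33 ± 0.14 in FVB and 2.21 ± 0.13 in B6 (SD, n = 12 each; two-sided permutation test p = 0.0415, adjusted p = 0.0829 over 2 controls), and that of the Gapdh control 0.16 and 0.14 (p = 0.487, same permutation test).

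**Figure D1:**
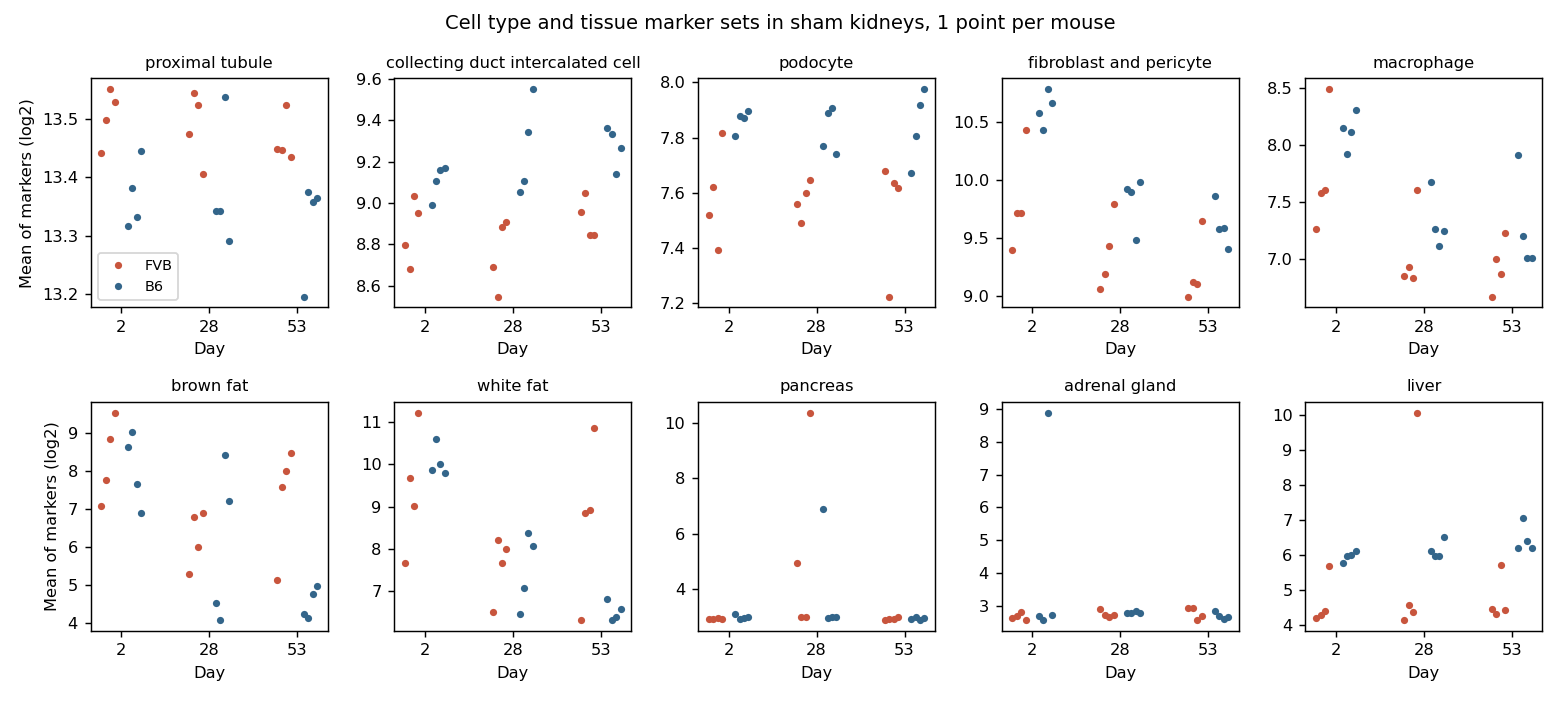
Mean log2 value of each marker set on each of the 24 sham arrays, by day after surgery (x axis) and strain (colour), 1 point per mouse and 4 mice per group. Pancreas, adrenal and liver transcripts stand out on single arrays (pancreas 10.4 on 1 FVB array, adrenal 8.89 on 1 B6 array), fat transcripts vary from mouse to mouse, and the fibroblast and macrophage sets have their highest values at day 2.

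The strains differed widely. The first principal component held 46.2% of the variance and separated all 12 FVB arrays (23.51 to 27.55) from all 12 B6 arrays (-28.13 to -23.61). Of 13174 genes, 4278 (32.5%) passed an adjusted p of 0.05 in limma, 2223 higher in FVB (16.9%) and 2055 lower (15.6%). Most of these differences were small: 70.3% of the genes that passed differed by under 0.5 on the log2 scale, and their median absolute difference was 0.33. A difference of at least 2-fold was seen for 420 genes (3.19%), 170 higher and 250 lower, and of at least 8-fold for 53 genes, 22 higher and 31 lower. The 12 FVB and 12 B6 values did not overlap for 832 genes (6.32%), of which 830 passed the test. The strain difference held at each day: 2172 genes passed at day 2 (16.5%), 1899 at day 28 (14.4%) and 1990 at day 53 (15.1%). The day 28 count was 1080 without the arrays that held pancreas, adrenal or liver transcripts. Here and below, that setting left out B6 day 2 mouse 4, B6 day 28 mouse 1 and FVB day 28 mice 1 and 4. FVB day 28 mouse 1 (pancreas mean 4.94) fell out through a pancreas limit lower than 5. Day 28 then rested on FVB mice 2 and 3 and B6 mice 3, 5 and 6, so the smaller groups also bear on the count. Of the 420 genes with at least 2-fold differences 418 had the same sign at all 3 days and 355 passed at each. In these bulk samples fewer cells of a type and less RNA per cell cannot be told apart.

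Among the genes higher in FVB, the 15 with the largest differences and no overlap between strains were a mixed group of carriers, membrane and vesicle proteins and enzymes. Snap91, a clathrin assembly protein best known from synapses, led them: it ran from 8.71 to 9.74 (median 9.09) in FVB and from 3.21 to 3.86 (median 3.53) in B6, a difference of 5.57 (SE 0.16, 47.6-fold, adjusted p = 8.2e-28). Abhd1, which encodes an alpha/beta hydrolase fold protein, ran from 9.66 to 10.24 (median 9.95) and from 3.74 to 4.88 (median 4.59), a difference of 5.50 (SE 0.14, 45.3-fold, adjusted p = 5.57e-30). For both genes the lowest FVB kidney lay far above the highest B6 kidney. The serpin pair followed. Serpina1b, an alpha-1-antitrypsin gene, spread from 7.58 to 10.77 (median 9.51) in FVB and from 2.21 to 6.32 (median 3.73) in B6, a difference of 5.41 (SE 0.31, 42.6-fold, adjusted p = 6.12e-18). Serpina6, the plasma carrier of corticosteroids known as corticosteroid-binding globulin, ran from 5.86 to 9.08 (median 7.00) in FVB while all 12 B6 arrays lay at 2.20 to 2.23, a difference of 4.83 (SE 0.21, at least 27.1-fold, adjusted p = 1.07e-21).

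Greb1, a gene known for its induction by oestrogen, was at 7.06 to 7.84 (median 7.67) in FVB and 2.20 to 2.81 (median 2.64) in B6, a difference of 4.93 (SE 0.12, 30.6-fold, adjusted p = 5.54e-31). Cacna2d2, an auxiliary subunit of voltage-gated calcium channels, was at 7.06 to 8.13 (median 7.50) and 2.27 to 3.36 (median 2.50), with a difference of 4.81 (SE 0.17, 28.1-fold, adjusted p = 4.94e-25). Both genes were at or near the lowest values in B6. Signalling and vesicle genes in the same group were Pik3c2g, a class II phosphoinositide 3-kinase (4.73), Ptprn2, a phosphatase-like protein of secretory granules (4.54), and the small GTPase Rab30 (3.60). The enzymes were Gdpd3, a glycerophosphodiester phosphodiesterase (3.98), the tRNA deaminase subunit Adat2 (3.93), the cytosolic branched-chain amino acid transaminase Bcat1 (3.91) and the ribonuclease Rnase4 (3.66). Bcat1 was even in FVB, 8.21 to 8.87 (median 8.58), and scattered in B6, 2.36 to 6.83 (median 5.37). Tmem87a (3.46) and the meiotic recombination factor Psmc3ip (3.41) completed the 15.

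Among the genes lower in FVB, the largest difference was that of Galc, the lysosomal galactosylceramidase. Galc ran from 2.99 to 4.40 (median 3.30) in FVB and from 10.95 to 11.32 (median 11.11) in B6, a difference of -7.80 (SE 0.097, 223-fold, adjusted p = 1.68e-40). A second Galc probe set, with a mean of 2.75 over all 48 arrays, differed by 0.50 in the other direction. Ttr, transthyretin, the carrier of thyroid hormone and of retinol-binding protein, ran from 4.35 to 11.89 (median 5.52) in FVB and from 13.41 to 14.39 (median 13.63) in B6, a difference of -7.53 (SE 0.56, 185-fold, adjusted p = 2.63e-14), and its 4 probe sets gave -7.81 to -7.06. The highest FVB value, 11.89, came from the mouse whose array also held liver and pancreas transcripts, and without the sham arrays that held pancreas, adrenal or liver transcripts the difference was -7.98. Mndal, a member of the interferon-inducible Ifi200 family, ran from 2.49 to 3.29 (median 2.59) and from 8.75 to 9.68 (median 9.30), a difference of -6.61 (SE 0.15, 97.5-fold, adjusted p = 1.78e-31). H2-Eb1, the beta chain of the class II molecule H2-E, ran from 2.93 to 7.60 (median 3.62) and from 9.92 to 10.77 (median 10.18), a difference of -6.09 (SE 0.26, 68.3-fold, adjusted p = 2.93e-22). For each of these genes every FVB kidney lay below every B6 kidney, also where single FVB mice stood far above the others.

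Further genes were close to the lowest value on all FVB arrays. The zinc finger gene Zfp874a read 2.22 to 2.27 (median 2.22) in FVB and 7.36 to 7.93 (median 7.61) in B6, a difference of -5.43 (SE 0.075, at least 41.6-fold, adjusted p = 6.28e-39). Dpys, dihydropyrimidinase of pyrimidine breakdown, read 2.20 to 2.21 (median 2.20) and 4.94 to 7.29 (median 6.92), a difference of -4.44 (SE 0.22, at least 20.6-fold, adjusted p = 6.37e-20). The tripartite motif genes Trim34a (-4.74) and Trim12a (-4.06), relatives of the antiviral factor TRIM5, did not exceed 2.48 and 2.37 in any FVB kidney. Metabolic enzymes formed most of the rest: the lipase Lipo3 (-4.74), the steroid enzyme Hsd3b3 (-4.35), the methyltransferase Inmt (-4.27), the kinin-cleaving carboxypeptidase N subunit Cpn1 (-4.14) and the acetyltransferase Nat8f3 (-3.62). The remaining pair belongs to the cell cycle. Pttg1, securin, which holds back the separation of sister chromatids until anaphase, ran from 7.71 to 8.90 (median 8.21) in FVB. In B6 it ran from 12.01 to 12.43 (median 12.17), a difference of -3.99 (SE 0.089). Mcm6, a subunit of the replicative helicase, ran from 3.35 to 6.53 (median 4.24) and from 8.15 to 8.75 (median 8.33), a difference of -3.64 (SE 0.17).

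**Figure D2:**
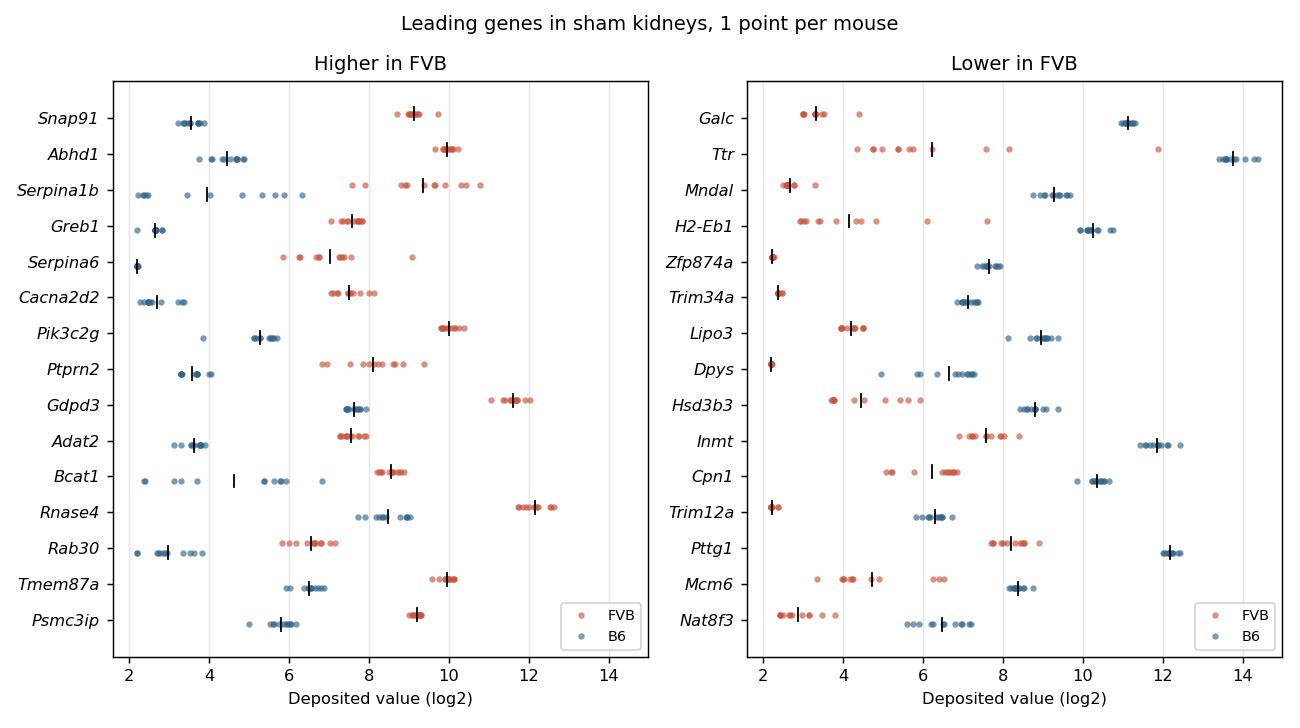
Deposited log2 values (x axis) of the 15 genes with the largest difference in each direction (y axis), 1 point per mouse, 12 FVB and 12 B6 sham kidneys; black ticks are strain means. The strains do not overlap for any of the 30 genes, with gaps from 3.41 (Psmc3ip) to 7.80 (Galc, in absolute value) between the day-weighted means.

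All 30 of these leading genes passed at each of the 3 days. How far they rest on single probe sets varied. Of the 30, 14 had 1 probe set above the filter and 16 had more. Among the 16, every probe set passed in the same direction for 12 genes and a probe set passed in the other direction for 2 (Galc and Trim34a, whose second probe set gave 1.60). Over all genes that passed and had more than 1 kept probe set (2251), at least 1 other probe set passed the same way for 50.9% and a probe set passed the other way for 205. Among the 180 such genes with at least 2-fold differences these were 66.1% and 16. Cyp4a31, a fatty acid hydroxylase, shows the extent of such a conflict: its brighter probe set gave 0.76 and its dimmer one -8.02. Probe sequences were not used here, so a base difference between the strains under a probe and a difference in transcript level cannot be told apart for a gene read by 1 probe set.

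Genes with large differences sat next to each other more often than other genes. In the gene order of RefSeq (GRCm38.p6), 16.7% of the 420 genes with at least 2-fold differences had a measured neighbour that also differed at least 2-fold, against 5.78% of the other placed genes. They formed 34 runs of adjacent measured genes, 2 of them with 3 genes. One run was Cpn1 (-4.14), the arachidonic acid epoxygenase Cyp2c23 (-3.0) and Erlin1 (-1.33), all lower in FVB. The other was mixed, with Vps52 (-3.17) and AA388235 (-1.18) lower and H2-K1 (1.30) higher. In several pairs, related enzymes differed in opposite directions. Hsd3b2 was higher (2.47, SE 0.18) beside Hsd3b3, both members of the family that makes ketosteroids from hydroxysteroids. Akr1c20 was higher (3.14, SE 0.19) beside Akr1c21 (-3.50, SE 0.10), and Cyp2d22 higher (2.46, SE 0.11) beside Cyp2d9 (-2.91, SE 0.28). Trim12c (1.06) was higher beside Trim12a, and the acetyltransferase Nat8f5 (1.40) beside Nat8f3. Near-identical relatives can share probe signal, so the split within these families is uncertain. Other pairs differed the same way: Hdhd3 (1.07) with Alad (1.12), Ap1s3 (1.54) with Wdfy1 (2.03), and the apolipoproteins Apoa4 (-1.98) with Apoc3 (-1.85). These pairs were picked after their values were seen.

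Transport genes were counted by segment of the nephron, and the segments were not tested against each other. Of 50 measured genes of proximal tubule transport, 18 were higher in FVB (36.0%, against 16.9% of all genes) and 8 lower (16.0%, against 15.6%), with a median difference of 0.13 against 0.0068 over all genes. Among the higher members were the amino acid carrier Slc6a20a (0.79, SE 0.088) and the organic anion carrier Slco1a6 (0.63, SE 0.072), both moderate in size. Slc22a12, the urate transporter URAT1, was at 9.44 to 10.44 (median 9.73) in FVB and 11.46 to 12.40 (median 11.69) in B6, a difference of -1.98 (SE 0.12, 3.95-fold, adjusted p = 1.83e-17). Slco4c1 (-2.08, SE 0.20) and Slc22a30 (-3.41, SE 0.33), both carriers of organic anions, were lower as well, with no overlap between strains. Without the day 2 arrays the proximal list gave 10 higher and 7 lower, and without the arrays that held pancreas, adrenal or liver transcripts 16 higher and 5 lower.

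In both distal lists more genes were lower in FVB than higher. Of 29 collecting duct genes, 14 were lower (48.3%) and 3 higher (10.3%), with a median of -0.26. The lower members held several genes of intercalated cells, which secrete acid and base: the proton pump subunit Atp6v1b1 was at 8.79 to 9.38 (median 9.19) in FVB and 9.83 to 10.21 (median 10.02) in B6, a difference of -0.89 (SE 0.085, 1.85-fold, adjusted p = 3.23e-11). The ammonia channel Rhcg (-0.89, SE 0.11) and the exchanger Slc4a9 (-1.06, SE 0.16) were lower too, as was the potassium channel subunit Kcne1 (-1.68, SE 0.12). Kcne1's second probe set gave -0.14. The mean of 4 intercalated cell markers, 2 of them lower in FVB, was at 8.55 to 9.05 in FVB and 8.99 to 9.55 in B6. All 4 are members of the collecting duct list, so their mean is not a separate reading of it. Carbonic anhydrase Car2 was higher by 0.26 (SE 0.042) and the water channel Aqp2 by 0.49 (SE 0.15). The lower genes were not only those of intercalated cells. Of 5 markers of principal cells, also of the collecting duct, 2 were lower, Hsd11b2 (-0.33) and Scnn1g (-0.31). Aqp2 was the 1 higher, and Aqp3 and Avpr2 did not pass. Of 23 loop of Henle and distal tubule genes, 7 were lower (30.4%) and 1 higher (4.35%), against 15.6% and 16.9% of all genes. The median was -0.10. Slc12a3, the thiazide-sensitive sodium chloride cotransporter, was lower (-0.68, SE 0.11), as were the sodium calcium exchanger Slc8a1 (-0.63, SE 0.11) and the calcium buffer Calb1 (-0.40, SE 0.077). The other distal calcium buffer, Pvalb, was the 1 higher member (1.52, SE 0.30).

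The glomerular list was split, with 8 of 33 genes higher (24.2%, against 16.9% of all genes) and 9 lower (27.3%, against 15.6%). The median was -0.094. Col4a3, a chain of the type IV collagen of the glomerular basement membrane, was at 9.14 to 9.81 (median 9.55) in FVB and 10.15 to 10.65 (median 10.44) in B6, a difference of -0.92 (SE 0.076, 1.89-fold, adjusted p = 4.48e-13). Thsd7a, a podocyte surface protein (-1.10, SE 0.10), and Kirrel, the slit diaphragm protein Neph1 (-0.93, SE 0.14), were lower without overlap. The podocyte actin motor Myo1e was higher by 0.72 (SE 0.092) with its brightest probe set, while another gave -0.0048. Wt1, the podocyte transcription factor, was lower (-0.91, SE 0.14).

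Enzymes of amino acid breakdown were the metabolic list with the largest share of higher genes. Of 47 measured, 26 were higher in FVB (55.3%), 8 lower (17.0%), and the median was 0.22. Aldh4a1, which completes mitochondrial proline breakdown, was at 9.89 to 10.77 (median 10.31) in FVB and 6.85 to 7.68 (median 7.35) in B6, a difference of 3.02 (SE 0.12, 8.14-fold, adjusted p = 1.07e-22). Bckdhb, a subunit of branched-chain ketoacid dehydrogenase (0.77, SE 0.072), and Pccb, of propionyl-CoA carboxylase (0.64, SE 0.058), were higher without overlap. Among the lower members was Cth, cystathionine gamma-lyase (-1.24, SE 0.057), and Cbs, the enzyme before it, was lower (-1.20, SE 0.19). The counts were 24 higher and 8 lower without the arrays that held pancreas, adrenal or liver transcripts.

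Detoxification enzymes differed in both directions. Of 63 esterases, reductases and dehydrogenases 21 were higher (33.3%, against 16.9% of all genes) and 20 lower (31.7%, against 15.6%). Of the 63, 13 differed at least 2-fold. Without day 2 the count of higher genes was 12. Akr1c21, a hydroxysteroid dehydrogenase, was at 10.16 to 11.49 (median 10.79) in FVB and 13.92 to 14.51 (median 14.32) in B6. Of 44 conjugating enzymes 10 were higher (22.7%) and 17 lower (38.6%). Sult1c2, a sulfotransferase (1.53, SE 0.089), and Gstk1, the mitochondrial glutathione transferase (1.37, SE 0.080), were higher. Gsto1 (-1.01, SE 0.064) and the glucuronosyltransferase Ugt2b38 (-2.10, SE 0.13) were lower. Of 37 cytochrome P450 genes 6 were higher (16.2%) and 8 lower (21.6%), near the shares over all genes (16.9% and 15.6%). Cyp7b1, an oxysterol hydroxylase, was lower (-1.20, SE 0.19). The 2 enzymes of vitamin D hormone turnover, picked after their values were seen, went opposite ways: Cyp24a1, which inactivates the hormone, was higher (2.14, SE 0.40) and Cyp27b1, which makes it, lower (-1.87, SE 0.34).

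Lipid and mitochondrial lists gave the following counts. Of 50 respiratory chain genes 15 were higher (30%, against 16.9% of all genes), 5 lower (10%, against 15.6%) and the median was 0.043. None of the 50 differed without overlap. The 15 became 8 without the arrays that held pancreas, adrenal or liver transcripts and 3 without day 2. Of 52 genes of fatty acid oxidation and peroxisomes 12 were higher (23.1%) and 7 lower (13.5%). Without day 2 these counts were 6 higher and 7 lower. Crat, carnitine acetyltransferase (0.50, SE 0.059), was among the higher, and Ech1 (-0.75, SE 0.052) and Pex19 (-0.84, SE 0.097) among the lower. Of 24 genes of cholesterol and fatty acid synthesis 5 were higher and 5 lower (20.8% each), and 3 higher and 5 lower without day 2. Dhcr7, which makes the last step to cholesterol, was higher (1.07, SE 0.097), and squalene epoxidase Sqle lower (-1.06, SE 0.099). In the antioxidant list 7 of 32 were higher (21.9%) and 9 lower (28.1%). Glutaredoxin Glrx (0.57, SE 0.056) was among the higher, and Cbr3 (-1.41, SE 0.22) and Gpx6 (-1.08, SE 0.19) among the lower.

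**Figure D3:**
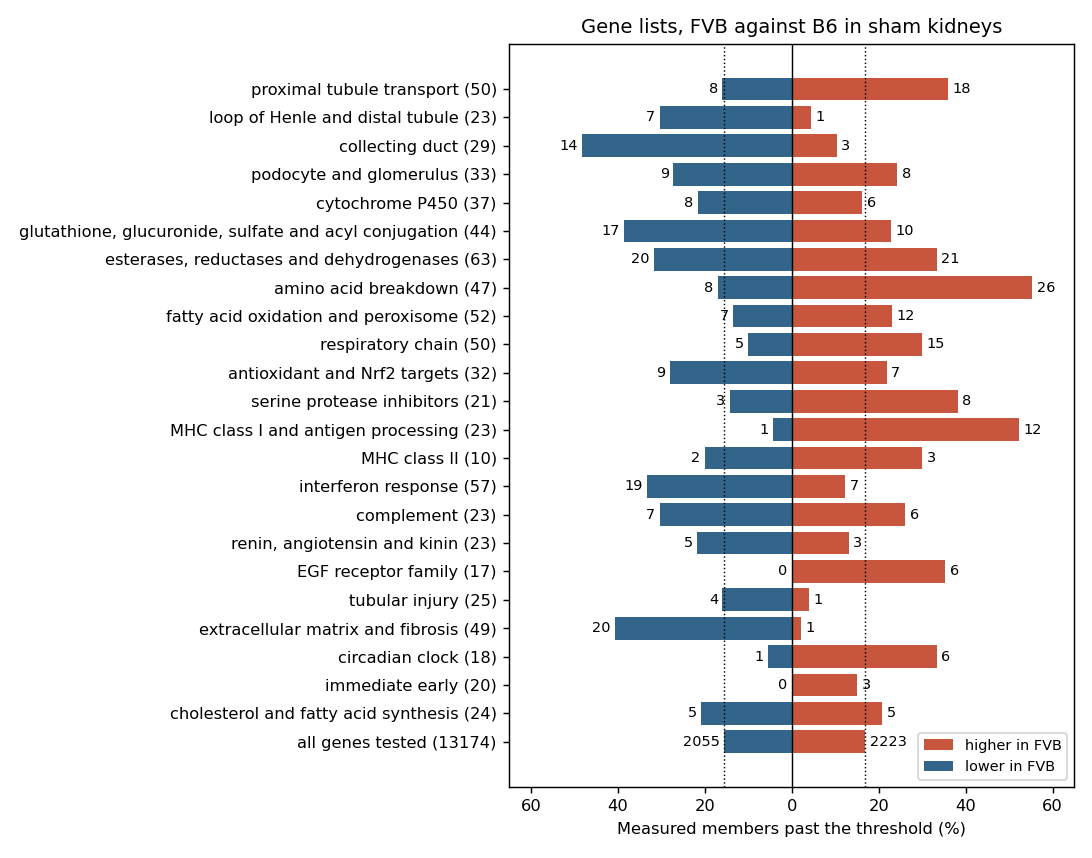
Share of the measured members of each gene list that passed the test (x axis, percent; higher in FVB to the right, lower to the left), with the counts at the bars, the number measured in brackets and dotted lines at the shares over all 13174 genes (16.9% and 15.6%). Amino acid breakdown (26 of 47) and MHC class I (12 of 23) reach furthest right, collecting duct (14 of 29) and extracellular matrix (20 of 49) furthest left.

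In the extracellular matrix list, 20 of 49 measured genes were lower in FVB (40.8%, against 15.6% of all genes), 1 was higher and 28 did not pass, and the median was -0.28. Col5a2, a fibrillar collagen chain, was at 4.91 to 8.05 (median 6.19) in FVB and 9.24 to 10.09 (median 9.37) in B6, a difference of -3.24 (SE 0.21, 9.45-fold, adjusted p = 3.96e-16), with both probe sets agreeing. The main interstitial collagen Col1a1 was at 3.57 to 7.02 (median 4.34) and 4.75 to 7.83 (median 5.72), a difference of -1.41 (SE 0.24, 2.65-fold, adjusted p = 1.15e-05), and these ranges overlapped. A second Col1a1 probe set gave -0.29 and did not pass (adjusted p = 0.37). Of the 6 fibroblast and pericyte markers 5 were lower in FVB: Pdgfra (-0.56), Pdgfrb (-0.33), Col1a1, Col3a1 (-0.72) and Acta2 (-0.33). Dcn, also a fibroblast gene, read 0.068 and did not pass. All of these markers but Pdgfrb are members of the matrix list, so they are not a separate reading of it. The list counted 1 higher and 21 lower with fat marker levels as covariates and 2 higher and 15 lower without day 2. In the tubular injury list 4 of 25 genes were lower (16.0%, near the 15.6% of all genes), among them Lcn2, an injury-released siderophore binder (-0.84 (SE 0.25); -0.41, adjusted p = 0.43, without day 2), and Krt7 (-0.44, SE 0.075), and 1 higher, Anxa1 (0.41, SE 0.15). The Anxa1 call was lost when any of 8 single mice was left out (adjusted p = 0.0547 to 0.0774) and with the mean of its probe sets (adjusted p = 0.163). The median of the injury list was -0.0022.

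In the list of MHC class I and antigen processing genes, 12 of 23 measured were higher in FVB (52.2%, against 16.9% of all genes), 1 was lower and 10 did not pass. The median was 0.16, and the count of higher genes was 4 without day 2. H2-K1, a classical class I heavy chain, was at 11.56 to 12.91 (median 11.75) in FVB and 10.43 to 10.88 (median 10.68) in B6, a difference of 1.30 (SE 0.086, 2.46-fold, adjusted p = 5.68e-16). B2m, the light chain shared by class I molecules, was at 14.20 to 15.25 (median 14.35) and 13.51 to 14.01 (median 13.78), a difference of 0.78 (SE 0.060, 1.72-fold, adjusted p = 4.48e-14). Neither gene overlapped between strains. H2-D1 was higher by 1.30 (SE 0.084), the immunoproteasome subunit Psmb9 by 0.98 (SE 0.24) and the peptide transporter Tap2 by 0.57 (SE 0.15). The lower member was Hfe, the class I-like regulator of iron uptake (-1.21, SE 0.080). H2 genes are polymorphic and resemble one another: probe sets of H2-D1 gave 0.19 to 1.65 and those of H2-Aa, the class II alpha chain, -3.79 to 1.13. Of 10 class II genes 3 were higher (30%) and 2 lower (20%, against 15.6% of all genes), and 4 were lower without day 2. H2-Ea, which the H2 haplotypes of both strains are known not to express, read above the lowest value of the table in both. It was at 4.91 to 7.02 (median 5.23) in FVB and 3.13 to 5.98 (median 4.86) in B6. H2-Ea was among the higher class II genes (0.71, and 0.82 with its second probe set). Without day 2 its difference was 0.43 and did not pass.

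Class I and class II genes are driven from short upstream regions that hold a CCAAT box, bound by NF-Y, and in part an interferon-type element, and the upstream windows of 3 members are shown for that reason. Each is the 250 bases before the gene's start from RefSeq, GRCm38.p6, the C57BL/6J reference: H2-K1 (chr17:34000348-34000597, minus strand), B2m (chr2:122147437-122147686, plus strand) and H2-Aa (chr17:34287824-34288073, minus strand). Capitals mark CCAAT, which reads ATTGG on the other strand, and an interferon-type repeat of a G with 3 A bases, any 2 bases and the same 4 again, both searched on both strands and not overlapping here.
H2-K1: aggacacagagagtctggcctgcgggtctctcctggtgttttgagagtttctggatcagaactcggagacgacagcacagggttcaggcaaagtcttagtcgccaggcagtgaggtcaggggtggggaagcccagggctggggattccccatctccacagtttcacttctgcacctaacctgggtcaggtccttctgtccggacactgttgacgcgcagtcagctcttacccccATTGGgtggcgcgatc
B2m: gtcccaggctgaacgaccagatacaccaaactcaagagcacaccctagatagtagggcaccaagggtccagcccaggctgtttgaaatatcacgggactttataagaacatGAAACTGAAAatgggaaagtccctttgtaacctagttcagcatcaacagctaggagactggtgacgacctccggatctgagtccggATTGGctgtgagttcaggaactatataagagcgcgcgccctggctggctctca
H2-Aa: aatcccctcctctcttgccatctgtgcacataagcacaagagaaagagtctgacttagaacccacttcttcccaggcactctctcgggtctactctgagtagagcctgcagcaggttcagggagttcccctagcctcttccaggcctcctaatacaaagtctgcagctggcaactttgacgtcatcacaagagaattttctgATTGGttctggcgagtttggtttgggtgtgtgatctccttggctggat
Each window held 1 CCAAT box, and B2m held 1 interferon-type repeat of the form searched. Other forms of interferon element were not searched, so a window without this repeat is not shown to lack one. A CCAAT box was found in all 6 class II genes and in 9 of 16 class I list genes that had a window, against 39.8% of the 10626 tested genes with a window and 33.8% of all 32851 windows. The interferon-type repeat was found in 0 of 6 and 1 of 16, against 3.30% of tested genes and 2.98% of windows. These are letters of the reference strain, and the FVB sequence was not used here.

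More interferon response genes were lower in FVB than higher. Of 57 measured, 19 were lower (33.3%), 7 higher (12.3%), and the median was -0.11. The count of higher genes was 2 without day 2, 3 without the arrays that held pancreas, adrenal or liver transcripts, and 11 with array weights or a shift to a common median. At day 2 the list was balanced, 11 higher and 11 lower, and in Nx kidneys its median was 0.35. Beside Mndal, Trim34a and Trim12a, Trim30d (-2.81, SE 0.17) and Ifih1, the double-stranded RNA sensor MDA5 (-1.43, SE 0.098), were lower without overlap. Ifih1 was at 6.50 to 7.78 (median 6.74) in FVB and 8.13 to 8.47 (median 8.33) in B6. Classical response genes were among the lower ones too, such as Ifit1 (-0.77, SE 0.22), Usp18 (-1.30, SE 0.21) and Oas1a (-0.98, SE 0.17). The higher ones included the interferon-gamma induced Igtp (1.01, SE 0.30) and Irf1 (0.44, SE 0.17). Of 23 complement genes 6 were higher (26.1%, against 16.9% of all genes) and 7 lower (30.4%, against 15.6%). The higher ones were led by C2 (1.20, SE 0.075) and the mannose-binding lectin Mbl2 (1.45, SE 0.16). The lower ones were led by Cfi (-1.81, SE 0.23), complement factor I. The C1q chains C1qa (-0.52) and C1qb (-0.94), which macrophages make, were among the lower ones, and so was the macrophage marker Adgre1 (-1.04). Another macrophage marker, Csf1r, was higher (0.35).

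Smaller regulatory lists added few genes. In the renin, angiotensin and kinin list 5 of 23 were lower (21.7%, against 15.6% of all genes). A further 3 of the 23 were higher, where 16.9% of all genes were, so both counts lay near the shares over all genes. The lower ones included angiotensinogen Agt (-0.86, SE 0.097) and kininogen Kng1 (-0.43, SE 0.079) beside Cpn1. The endothelin receptor Ednrb (0.86, SE 0.095) was among the higher. Fitted on the sham arrays alone 9 were lower, and without the arrays that held pancreas, adrenal or liver transcripts 1 was higher. In the EGF receptor family list 6 of 17 were higher (35.3%), and 2 were higher without day 2. Among the 6 were the receptors Erbb2 (0.36, SE 0.10) and Erbb3 (0.36, SE 0.10) and the ligand Btc (0.58, SE 0.17). Of 20 immediate early genes 3 were higher (15%, against 16.9% of all genes), Jund (0.21), Myc (0.57) and Nr4a1 (0.68), and 1 without day 2. The Nr4a1 call was also lost when any of 5 single mice was left out (adjusted p = 0.0504 to 0.07). Of 21 serpins 8 were higher (38.1%, and 5 genes without day 2) and 3 lower (14.3%), among the latter the collagen chaperone Serpinh1 (-0.93, SE 0.11).

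Of 21 measured genes known from other work to vary among inbred strains, 6 were higher (28.6%), 5 lower (23.8%) and 10 did not pass. Over all genes the shares were 16.9% and 15.6%. Alad, an enzyme of haem synthesis whose copy number varies among strains, was at 11.18 to 11.50 (median 11.33) in FVB and 9.90 to 10.40 (median 10.23) in B6, a difference of 1.12 (SE 0.056, 2.18-fold, adjusted p = 1.18e-19). Nnt, the mitochondrial transhydrogenase that is known to be defective in the C57BL/6J substrain, averaged 13.40 ± 0.19 and 12.40 ± 0.18 (SD, n = 12 each) without overlap, a difference of 1.00 (SE 0.074, 2-fold, adjusted p = 1.6e-14). Ifi202b, an Ifi200 gene, was at 2.20 on all 12 B6 arrays and 2.65 to 6.05 (median 4.37) in FVB, at least 4.4-fold higher. Wdfy1 was higher by 2.03 (SE 0.071), and Apoa2, an apolipoprotein of high-density lipoprotein, lower (-2.88, SE 0.47). Glo1 (0.18), Naip2 (-0.46), Ly6e (-0.36) and the leukocyte gene Ptprc (-0.55) passed with small differences. Naip2 lost its call when any of 11 single mice was left out (adjusted p = 0.0511 to 0.0837), and Ly6e and Ptprc with the mean of their probe sets (adjusted p = 0.152 and 0.229). The members that did not pass were Ide, Mx1, Naip5, Slc11a1, Ahr, Erdr1, Gbp2b, Thy1, Cd5 and Fcgr4.

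The strain difference varied with the day for 17 genes (0.129%; 649 genes had an unadjusted p below 0.05). This count moved with single mice: it was 11 without B6 day 2 mouse 5, 27 without FVB day 53 mouse 3 and 30 without FVB day 2 mouse 1. It was 11 without the arrays that held pancreas transcripts and 84 with array weights. They included genes of the circadian clock and its outputs and genes of antigen presentation. The clock is a loop in which Arntl (BMAL1) and its partners switch on repressors and the Dbp gene, so that Dbp and Arntl are known to peak at opposite phases. Dbp, a transcription factor driven by the clock, read 11.08, 11.94, 11.49 and 12.09 in the FVB kidneys of day 2 and 12.51, 12.51, 12.78 and 12.94 in those of B6. At day 53 it read 13.12, 13.27, 13.03 and 13.64 in FVB and 12.16, 12.29, 11.99 and 12.16 in B6. The strains thus changed places without overlap, with differences of -1.03 at day 2, 0.28 at day 28 and 1.12 at day 53 (strain by day adjusted p = 2.37e-05).

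Arntl went the other way. Its difference was 0.99 at day 2, -0.48 at day 28 and -1.30 at day 53 (adjusted p = 0.00482), with means of 5.95 ± 0.71 and 4.96 ± 0.27 at day 2 and of 4.62 ± 0.056 and 5.91 ± 0.53 at day 53 (SD, n = 4 each). Nr1d2, a repressor of Arntl, followed Dbp (-0.27, 0.075 and 0.30). Npas2, a partner of Arntl, was lower at day 53 (-1.12), and its day 2 value of 0.50 did not pass. Npas2 did not pass the strain by day test. Over all days, 6 of the 18 clock genes were higher in FVB (33.3%, against 16.9% of all genes) and 1 lower (5.56%, against 15.6%). Cry1, a repressor of the loop, was higher at each day (1.59, 0.82 and 1.23) and over all days by 1.22 (SE 0.16, 2.32-fold, adjusted p = 3.3e-08), with 6.78 to 8.97 (median 7.90) in FVB and 6.19 to 7.41 (median 6.69) in B6. The hour at which kidneys were taken is not given in the sources used here, so strain and hour of sampling cannot be told apart within a day.

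The upstream window of Cry1 is shown because clock factors act through the E box CACGTG, in capitals, which reads the same on both strands (RefSeq, GRCm38.p6, chr10:85185055-85185304, minus strand).
Cry1: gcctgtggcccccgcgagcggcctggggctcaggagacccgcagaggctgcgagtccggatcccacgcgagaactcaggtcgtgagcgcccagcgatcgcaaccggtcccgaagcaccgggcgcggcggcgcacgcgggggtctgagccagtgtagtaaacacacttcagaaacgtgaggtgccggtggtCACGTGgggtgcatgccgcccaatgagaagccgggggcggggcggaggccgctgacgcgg
The window held 1 E box. CACGTG was found in 4 of the 16 clock genes that had a window, against 9.75% of the tested genes with a window and 6.02% of all windows.

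The counts of antigen presentation genes higher in FVB were largest at day 2. Of the 23 class I genes 10 were higher at day 2 (median 0.63), 3 at day 28 (0.14) and 4 at day 53 (0.11). Of the 10 class II genes 6 were higher and 1 lower at day 2 (median 1.28), and 3 were lower at each later day (medians -0.097 and -0.030). Over all 13174 genes 1110, 917 and 1008 were higher at the 3 days, and 1062, 982 and 982 lower. The strain by day test was passed by 1 class I gene (B2m) and 3 class II genes (H2-Ab1, Cd74 and H2-Aa). The other members were not shown to vary with the day. H2-Ab1, the class II beta chain of H2-A, read 10.72, 11.71, 12.43 and 10.90 in the FVB kidneys of day 2 and 10.11, 10.07, 9.89 and 10.45 in those of B6, a difference of 1.31. At day 28 and day 53 the sign turned, -0.79 and -0.81 (strain by day adjusted p = 0.00288). These values are those of the brightest H2-Ab1 probe set, which gave -0.096 over all days. Other H2-Ab1 probe sets gave -0.027 and 0.90 over all days, the latter past the limma test (adjusted p = 0.00426). They were not read by day. The B6 means stayed at 10.13 ± 0.23, 10.22 ± 0.27 and 10.04 ± 0.22 over the 3 days, and the FVB means were 11.44 ± 0.79, 9.43 ± 0.32 and 9.23 ± 0.35 (SD, n = 4 each). The FVB mean at day 2 is thus the value that stands apart, and its mice were uneven. The values 11.71 and 12.43 lay far above B6, and 10.72 and 10.90 near the highest B6 value of that day (10.45). Cd74, the class II invariant chain, was higher at day 2 (1.31), and its later values of -0.50 and -0.44 did not pass on their own. B2m was higher in FVB at all 3 days, by 1.22 at day 2, 0.58 at day 28 and 0.55 at day 53.

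Iigp1 and Gbp8, GTPases induced by interferon-gamma, were higher in FVB at day 2, unevenly between mice. Neither passed the strain by day test, so their differences are not shown to vary with the day. Iigp1 read 8.77, 11.99, 13.30 and 9.15 in FVB mice 1, 2, 4 and 5, and 8.75, 8.71, 8.46 and 8.80 in B6, a difference of 2.12 (adjusted p = 0.00719). Gbp8 read 3.03, 7.48, 8.46 and 4.38 in the same FVB mice and 2.76, 2.78, 2.81 and 3.21 in B6, a difference of 2.95 (adjusted p = 0.00218). Mice 2 and 4 were far above the other FVB mice for both genes. The chemokine Cxcl9 was lower in FVB at day 28 (-2.43), with 1.18 at day 2 and -0.73 at day 53, neither past the test. Macrophage markers at day 2 averaged 7.27 to 8.49 in FVB and 7.92 to 8.30 in B6, and T lymphocyte markers lay near the lowest value on all 24 arrays. The part of these cells in the day 2 values was not tested.

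The other genes whose difference varied with day were of mixed kind. Chrna7, a nicotinic receptor subunit, was measurable in FVB at day 2 (3.40, 2.88, 3.04 and 3.39) and read at most 2.66 on every other array. Cd5l, a secreted protein of macrophages, was seen in B6 at day 2 (3.64, 2.58, 3.57 and 3.19) and read at most 2.42 on every other array. The lactate carrier Slc16a1 turned from 0.64 to -1.04, the acyl-CoA thioesterase Acot1 from 0.47 to -0.81 and Ypel2 from 0.91 to -0.34 between day 2 and day 53. Ndrg1 (0.50 to -0.22) and Fam184a (0.44 to -0.49) did likewise. Ugt2b38 was lower at each day and more so later, by -1.20, -2.19 and -2.90. Serpina1b was the 1 leading gene of the 30 in this group, with differences of 2.97, 6.91 and 6.36.

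**Figure D4:**
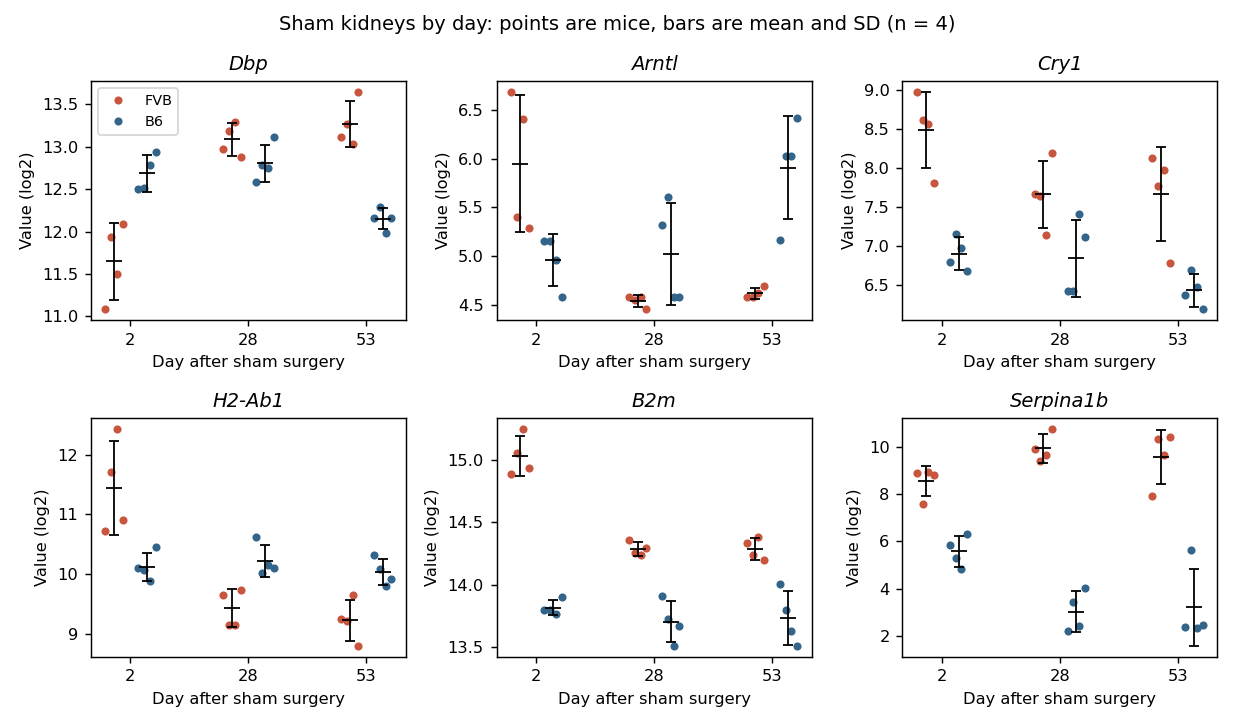
Log2 values (y axis) of 6 genes by day after sham surgery (x axis) in FVB and B6, 1 point per mouse, black bars mean and SD of 4 mice. Dbp and Arntl change places between the strains from day 2 to day 53, Cry1 has a higher mean in FVB at each day, H2-Ab1 is highest in FVB at day 2, B2m stays higher in FVB, and Serpina1b differs least at day 2 (2.97 against 6.91 and 6.36).

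Genes that passed at 1 day but not over all days gave further examples. At day 2 F13a1, coagulation factor XIII A of macrophages and platelets, was lower in FVB (-2.57), as were the matrix genes Cilp (-1.90) and Ccn4 (-1.43), and the clock-linked repressor Nfil3 was higher (1.52). At day 28 Prkag3 (-1.44) and Ccdc151 (-0.99) were lower, and Dusp6, which restrains ERK signalling (0.54), Tmem252 (0.68) and Bbs10 (0.80) higher. At day 53 Angptl4, an inhibitor of lipoprotein lipase, was lower (-1.57), and the fat genes Adipoq (4.34) and Plin4 (1.04) were higher. Adipoq read 2.48, 8.51, 8.98 and 10.24 in FVB and 3.65, 2.90, 2.72 and 3.57 in B6 at that day. The 3 measured white fat markers then averaged 6.32 to 10.86 and 6.33 to 6.83, a mean that includes Adipoq itself. The genes of this paragraph did not pass the strain by day test, so their differences are not shown to vary with the day.

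The 24 Nx arrays entered no sham group mean, but they shared the filter, the choice of probe sets and the estimate of spread with the sham arrays (fitted on the 24 sham arrays alone, 4898 genes passed in sham kidneys). In Nx kidneys 5633 genes passed (42.8%), and 2939 without the arrays that held pancreas transcripts. Of the 4278 genes that passed in sham kidneys, 2389 (55.8%) passed in Nx kidneys with the same sign, 213 with the opposite sign and 1676 did not pass. Of the 420 with at least 2-fold differences 364 (86.7%) passed with the same sign and 7 with the opposite one. Across genes the strain differences of both surgeries correlated at 0.714 (Pearson; Spearman 0.47; 13174 genes, which are not independent replicates). Among the 30 leading genes 29 passed in Nx kidneys with the same sign. Galc differed by -7.63 there, Ttr by -6.27 and H2-Eb1 by -5.27. The exception was Serpina6, at 2.63 ± 0.79 in FVB Nx kidneys against 7.04 ± 0.83 in FVB sham kidneys (SD, n = 12 each), which left a strain difference of 0.43 that did not pass.

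The strain difference depended on surgery for 2624 genes (19.9%). Of these, 1504 had a more positive difference in sham kidneys and 1120 a more negative one, and a shift of all arrays to a common median moved this split to 1963 and 846. Without the arrays that held pancreas transcripts 1071 genes passed. Among the 420 genes with at least 2-fold differences 193 passed this test. These genes, and the leading ones below, were chosen for their sham difference, so nothing is read from which surgery had the larger difference. The largest such change over all genes was that of Serpina1b, from 5.41 in sham to 0.80 in Nx kidneys: FVB averaged 7.63 ± 1.12 and B6 6.83 ± 1.35 after Nx (SD, n = 12 each). Mcm6 went from -3.64 to -0.69, Cacna2d2 from 4.81 to 2.46 and Bcat1 from 3.91 to 1.14. Col5a2 differed by -3.24 in sham and 0.14 in Nx kidneys, where its means were 11.16 ± 1.20 in FVB and 11.02 ± 1.00 in B6. Ifi202b differed more after Nx, 6.01, with FVB at 8.21 ± 1.36 and B6 near the lowest value.

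Of the 213 genes that passed in both surgeries with opposite signs, the 5 with the smallest p in sham kidneys are given here, provisional gene names left out. Slc13a4, a sulfate transporter, was at 7.15 to 8.50 (median 7.49) in FVB and 4.38 to 5.75 (median 5.20) in B6 sham kidneys, a difference of 2.49 (SE 0.15, 5.64-fold, adjusted p = 3.39e-17), and differed by -0.36 in Nx kidneys. The fatty acid elongase Elovl6 (0.66 and -0.24), the carnitine transporter Slc22a4 (0.57 and -0.21) and the peroxisomal enzyme Phyh (0.30 and -0.12) were likewise higher in sham and lower in Nx kidneys. Carboxypeptidase E, Cpe, went from -0.74 to 0.50.

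**Figure D5:**
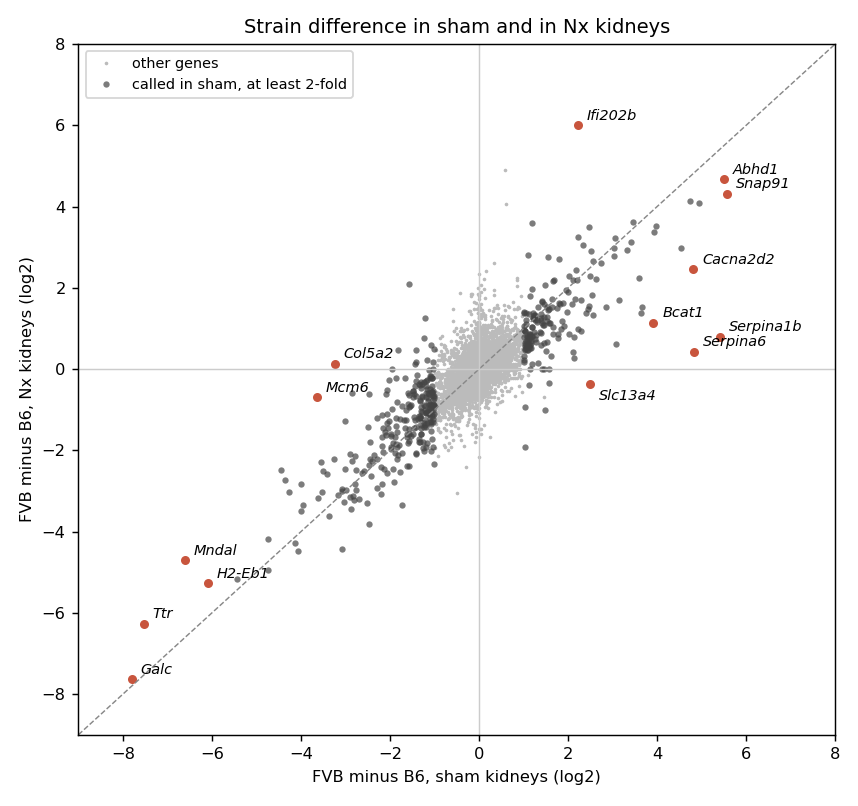
FVB minus B6 difference per gene in sham kidneys (x axis, log2) against that in Nx kidneys (y axis, log2), 13174 genes, with equal values on the dashed line. Most of the 420 dark points (called in sham, at least 2-fold) lie near the line, Galc and Ttr at its lower end, while Serpina1b, Serpina6, Mcm6 and Col5a2 lie close to 0 on the Nx axis.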

How the data were processed

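Whole-kidney RNA of 48 mice, 4 in each of 12 groups, was read on Affymetrix arrays with 45101 probe sets. The deposited values are log2 per probe set (2.20 to 16.2; 32.1% at the lowest value). The submitters' processing notes name MAS5 without role or version, and background correction and normalization are not given in the sources used here. No further scaling was applied. Probe sets were kept where 4 or more arrays exceeded 2.28, the 40th percentile of the table, and a gene was read by its 1-symbol probe set with the highest mean (13174 genes; dim or unnamed probe sets were left out). limma 3.58.1 (R 4.3.3) was fitted to 12 group means over all 48 arrays with an intensity trend, and p-values were Benjamini-Hochberg adjusted over all genes, with 0.05 as the limit. Differences average days 2, 28 and 53 equally, and "higher", "lower" and "passed" mean past that limit. The fit was checked on simulated data. Permutation tests used 100000 resamples. A fold whose lower group never passed the filter value is given as "at least". Named genes were the 15 largest differences in each direction without overlap, the first 5 per list by adjusted p, the first 5 by strain by day and the first 3 per day and direction, and others were chosen after their values were seen. Members and lists were chosen with earlier results of these data known. Labels do not say whether mice shared litters, so p-values measure the spread between these samples, and the number of arrays limits the precision. Alternatives changed the scaling, filter, probe set rule, weights, block and arrays used.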

Additional observations from a re-analysis of the deposited data

Results flagged for a closer look

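Single mice stood apart from the other 3 of their group in 37 of 300 groups of 4 arrays examined (12.3%), over 30 leading genes and 20 marker sets, where the gap to the nearest value, over the group range, exceeded the limit of the Dixon test. Chance gives about 5% where values do not tie. In 5 of the 37 the other 3 arrays were tied at 1 value, where any other value stands apart, and others lay close to such a tie, so the share is not to be set against chance.

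Among the leading genes Serpina1b had B6 day 53 mouse 3 at 5.66 against 2.35 to 2.47 in the other 3 and FVB day 2 mouse 2 at 7.58 against 8.80 to 8.94 in the other 3. Greb1 had B6 day 28 mouse 5 at 2.20 against 2.64 to 2.67 in the other 3, B6 day 53 mouse 5 at 2.81 against 2.64 in the other 3 and FVB day 2 mouse 1 at 7.06 against 7.73 to 7.83 in the other 3. Adat2 had B6 day 28 mouse 1 at 3.55 against 3.76 to 3.80 in the other 3. Bcat1 had B6 day 2 mouse 2 at 3.11 against 5.37 to 5.80 in the other 3. Rnase4 had FVB day 53 mouse 6 at 11.93 against 12.53 to 12.65 in the other 3. Tmem87a had FVB day 28 mouse 3 at 9.92 against 10.12 to 10.14 in the other 3. Galc had B6 day 53 mouse 1 at 10.95 against 11.07 to 11.09 in the other 3, FVB day 2 mouse 2 at 3.30 against 2.99 to 3.03 in the other 3 and FVB day 53 mouse 5 at 2.99 against 3.30 to 3.33 in the other 3. Ttr had B6 day 53 mouse 1 at 14.29 against 13.51 to 13.58 in the other 3. Mndal had FVB day 53 mouse 3 at 2.62 against 2.59 in the other 3. H2-Eb1 had FVB day 53 mouse 1 at 4.44 against 2.93 to 3.07 in the other 3. Trim34a had B6 day 53 mouse 3 at 7.33 against 6.98 to 7.03 in the other 3, FVB day 2 mouse 5 at 2.48 against 2.36 to 2.37 in the other 3, FVB day 28 mouse 1 at 2.36 against 2.36 in the other 3 and FVB day 53 mouse 6 at 2.46 against 2.36 to 2.37 in the other 3. Hsd3b3 had FVB day 2 mouse 5 at 5.05 against 3.70 to 3.76 in the other 3. Trim12a had FVB day 2 mouse 5 at 2.37 against 2.20 in the other 3 and FVB day 53 mouse 6 at 2.37 against 2.20 in the other 3. Mcm6 had FVB day 2 mouse 1 at 4.71 against 6.24 to 6.53 in the other 3.

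Among the marker sets, whose means are given, the mice below stood apart. Proximal tubule markers had B6 day 53 mouse 1 at 13.20 against 13.36 to 13.37 in the other 3 and FVB day 53 mouse 5 at 13.52 against 13.44 to 13.45 in the other 3. Distal convoluted tubule markers had FVB day 53 mouse 3 at 9.73 against 9.94 to 9.98 in the other 3. Podocyte markers had FVB day 53 mouse 3 at 7.22 against 7.62 to 7.68 in the other 3. Endothelium markers had B6 day 28 mouse 5 at 8.45 against 8.41 to 8.42 in the other 3. Macrophage markers had FVB day 28 mouse 4 at 7.61 against 6.84 to 6.93 in the other 3. Neutrophil markers had B6 day 28 mouse 1 at 4.36 against 2.70 to 2.78 in the other 3 and B6 day 53 mouse 1 at 3.06 against 2.69 to 2.70 in the other 3. Pancreas markers had B6 day 28 mouse 1 at 6.91 against 2.98 to 3.01 in the other 3. Adrenal gland markers had B6 day 2 mouse 4 at 8.89 against 2.56 to 2.71 in the other 3 and B6 day 28 mouse 5 at 2.83 against 2.79 in the other 3. Liver markers had FVB day 2 mouse 5 at 5.68 against 4.20 to 4.39 in the other 3, FVB day 28 mouse 4 at 10.07 against 4.13 to 4.56 in the other 3 and FVB day 53 mouse 5 at 5.71 against 4.32 to 4.45 in the other 3.

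The strain difference varied with the day after surgery for 17 genes, by limma over all genes tested. Adjusted p-values were Chrna7 7.66e-06, Dbp 2.37e-05, Cd5l 9.48e-05, Slc16a1 0.000977, H2-Ab1 0.00288, Arntl 0.00482, Cd74 0.00482, Serpina1b 0.0138, Ypel2 0.0138, Nr1d2 0.014, Acot1 0.014, Ndrg1 0.014, Ugt2b38 0.014, H2-Aa 0.014, Cxcl9 0.0335, B2m 0.0376 and Fam184a 0.0493.

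The strain difference also depended on surgery for 20 of the 30 leading genes and for the 5 genes given above out of 213 whose difference turned. The sham difference minus the Nx difference, on the log2 scale, was Snap91 1.26, Abhd1 0.83, Serpina1b 4.61, Greb1 0.85, Serpina6 4.41, Cacna2d2 2.36, Ptprn2 1.56, Gdpd3 0.45, Adat2 0.54, Bcat1 2.77, Rnase4 2.12, Rab30 1.35, Mndal -1.91, Lipo3 -0.56, Dpys -1.94, Hsd3b3 -1.62, Inmt -1.24, Trim12a 0.42, Pttg1 -1.17 and Mcm6 -2.95 for the leading genes. For the 5 given above it was Slc13a4 2.86, Elovl6 0.91, Cpe -1.24, Slc22a4 0.79 and Phyh 0.42. All 25 passed the test of strain by surgery.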

How the results depend on the processing

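The count of genes that differed between strains over all 3 days stayed within 1.5 times of 4278 under every alternative run over adjusted p alone. It was 4026 to 4239 with 1 mouse left out, 3525 without the arrays that held pancreas, adrenal or liver transcripts, 4154 with brown and white fat markers as covariates and 3126 without day 2, the last 3 chosen after seeing the data. Of the 420 genes with at least 2-fold differences, 415 passed again with the mean of all probe sets, 3 of the 420 with the sign changed. Array weights gave 3002 at day 53 and 84 for strain by day. The labels do not say that mouse numbers pair the samples, and not every same-numbered pair correlated above 0.1 (7 of 10, range -0.17 to 0.29, against 7 of 38 other pairs), so the numbers were not taken as pairs. With mouse number as a replicate block the counts were 4054 over all days, 1255 at day 28, 4 for strain by day, 2873 in Nx kidneys and 1058 for strain by surgery. Without the arrays with pancreas transcripts they were 11 for strain by day, 2939 in Nx and 1071 for strain by surgery. At day 28 the count was 1080 without the sham arrays that held pancreas, adrenal or liver transcripts. A lower pancreas limit there also left out FVB day 28 mouse 1 (4.94). Without the sham arrays with brown fat transcripts day 28 gave 1133 and day 53 gave 806, and the other sham counts were not run, since no FVB array of day 2 was left. Requiring 2-fold as well gave 420, 464 (day 2), 403 (day 28), 467 (day 53), 510 (Nx) and 257 (strain by surgery). With 1 mouse left out the counts ranged from 1769 to 2211 at day 2, 1572 to 1907 at day 28, 1623 to 1999 at day 53, 11 to 30 for strain by day, 5318 to 5963 in Nx and 2301 to 3313 for strain by surgery. With the mean of probe sets Cyp4a31 (-3.63), Ndufs4 (-0.082, which did not pass) and Glo1 (-0.11) changed sign. Without day 2 the calls of Chrna7 (-0.022, limma adjusted p = 0.737) and H2-DMa (-0.061, adjusted p = 0.939) were lost, and Cd5l read 0. The cause was not tested. Signal near the lowest value limits how far low genes can be compared.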
